A study of Mus musculus with 9 samples.

Results

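The cholesterol synthesis enzymes Hmgcs1, Mvk, Fdps, Fdft1, Sqle, Lss, Cyp51 and Dhcr7 were examined in mouse spermatogonia after dietary vitamin A deficiency (VAD). A probe set, the group of short probes that an Affymetrix array uses to read a transcript, was counted as a member when its only platform gene symbol was one of these 8 genes. This gave 21 of the 45101 probe sets on the array, and 13 of the 21, covering all 8 genes, passed the filter on low signal. Hmgcs1 kept 4 probe sets, Mvk and Fdft1 kept 2 each, and Fdps, Sqle, Lss, Cyp51 and Dhcr7 kept 1 each.

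The 9 arrays formed 3 groups of 3 from adult Balb/C mice: VAD diet for 18 weeks, VAD diet for 25 weeks, and a normal control diet. Neither a transgene nor another treatment is named in the labels, and the time on the control diet and the age in weeks are not given. Testes of 2 mice made up a preparation, whose germ cells were kept in culture overnight and sorted by sedimentation velocity, with spermatogonia named as the main product. Whether each array held its own preparation is not stated, so p-values measure only the spread between these arrays, and 3 arrays a group limit the precision of every value. In such bulk samples a lower signal from fewer cells of a type and one from less RNA per cell cannot be told apart.

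Cells build cholesterol from acetyl-CoA in a long chain of reactions. Hmgcs1 makes HMG-CoA, which is reduced to mevalonate, and Mvk adds a phosphate to mevalonate. Fdps forms farnesyl pyrophosphate, the branch point between sterols and non-sterol isoprenoids. Fdft1 joins farnesyl units into squalene, the commitment to sterols, Sqle oxidises squalene, Lss closes the rings to lanosterol, Cyp51 demethylates lanosterol, and Dhcr7 reduces the last double bond on a route to cholesterol. The genes are textbook targets of SREBP2, a transcription factor released from the endoplasmic reticulum when membrane sterol is low. In the testis, cholesterol is also the substrate of androgen synthesis in Leydig cells, and Cyp51 is known for its strong expression in rodent spermatids. Vitamin A yields retinoic acid, which drives spermatogonia into differentiation.

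RefSeq promoters (GRCm38.p6, 250 bases before to 50 after the gene's start) were available for 5 of the 8 genes, 7 promoters in all, because Dhcr7 has 3. The promoters of Hmgcs1 and Mvk are shown because these genes were called at 25 weeks in opposite directions, and that of Dhcr7, which was not called, is set beside them. Capitals mark every match to the sterol regulatory element TCACNCCAC, the CCAAT box CCAAT and the GC box GGGCGG, on either strand, and no marked motifs overlap. The Hmgcs1 promoter lies on the plus strand at chr13:119690101-119690400, the Mvk promoter on the plus strand at chr5:114444019-114444318, and the Dhcr7 promoter with the most matches on the plus strand at chr7:143829964-143830263.
Hmgcs1: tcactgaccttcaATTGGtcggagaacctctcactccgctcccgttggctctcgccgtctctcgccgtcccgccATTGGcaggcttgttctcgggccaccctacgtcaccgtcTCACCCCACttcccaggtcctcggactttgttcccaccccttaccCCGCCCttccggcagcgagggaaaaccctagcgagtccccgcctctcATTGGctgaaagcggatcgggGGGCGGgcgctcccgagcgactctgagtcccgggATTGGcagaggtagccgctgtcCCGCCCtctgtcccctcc
Mvk: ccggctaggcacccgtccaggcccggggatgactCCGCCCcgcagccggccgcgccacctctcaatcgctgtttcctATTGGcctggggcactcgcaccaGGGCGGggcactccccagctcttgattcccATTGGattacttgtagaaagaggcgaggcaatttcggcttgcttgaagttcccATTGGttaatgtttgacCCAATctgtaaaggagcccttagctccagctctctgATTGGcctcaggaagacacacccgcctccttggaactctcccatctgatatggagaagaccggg
Dhcr7: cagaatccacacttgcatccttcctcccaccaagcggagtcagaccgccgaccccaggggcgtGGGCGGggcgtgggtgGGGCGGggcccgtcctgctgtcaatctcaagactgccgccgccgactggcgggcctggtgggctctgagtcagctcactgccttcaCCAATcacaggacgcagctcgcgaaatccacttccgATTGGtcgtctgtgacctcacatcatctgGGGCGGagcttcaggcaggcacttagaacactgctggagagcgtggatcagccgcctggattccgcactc

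The sterol regulatory element occurred in 1.24% of the 32851 promoters in the table and in 1 of the 7 enzyme promoters, that of Hmgcs1, with its first base 137 bases before the start. A CCAAT box was held by 37.4% of all promoters and by 5 of the 7. A GC box was held by 35.7% of all promoters and by 6 of the 7. Mvk had 5 CCAAT boxes, Hmgcs1 had 4, and the Dhcr7 promoter shown had 2. The promoters of Cyp51 (minus strand, chr5:4104648-4104947) and Lss (plus strand, chr10:76531355-76531654) each held 1 CCAAT box and no sterol regulatory element in these letters. Fdps, Fdft1 and Sqle are named only.

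Some arrays stood apart from the rest. VAD 25-week replicate 3 and control replicate 3 had trimmed mean signals of 23.2 and 22.9, against 55.2 to 185 on the other 7 arrays, and are called the dim pair here. They correlated with each other at 0.889 but with the other arrays at only 0.776 to 0.809, where the other arrays correlated with one another at 0.935 to 0.981. The model therefore carried a term for the dim pair besides the diet group, and enzyme results that change without these arrays are also given without them. VAD 25-week replicates 1 and 2 had poly-A control signals above 10 times the median of the arrays, which no control array had. The ratio of 3′ to 5′ probe signal for Actb, a measure of RNA quality, was 4.81, 5.55 and 5.74 at 18 weeks, 7.82, 7.92 and 4.95 at 25 weeks, and 4.92, 5.49 and 3.32 on the control diet. For Gapdh it was 3.08, 3.94 and 4.11 at 18 weeks, 3.77, 4.05 and 5.61 at 25 weeks, and 3.16, 3.36 and 4.36 on the control diet. Both ratios were thus higher at 25 weeks than on the control diet, inside and outside the dim pair, and their part in the enzyme results was not tested. Values below are the deposited MAS5 signals on a linear scale, which differ in overall brightness between arrays, and then log2 signals after quantile normalization, which sets every array to the same distribution. Fold changes are on the log2(signal + 3.26) scale, which understates changes of dim probe sets, and "called" means a limma p under 0.05 after Benjamini-Hochberg adjustment over all 27022 probe sets tested.

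At 25 weeks of deficiency the 8 enzymes split. Hmgcs1, at the entry of the pathway, rose, while Fdft1, at the commitment to sterols, and Mvk fell, and Fdps, Sqle, Lss, Cyp51 and Dhcr7 did not pass the test. Of the 13 probe sets, 5 (38.5%) were called at 25 weeks, against 14.9% of all probe sets tested (4017 of 27022). The calls were 3 higher, all of Hmgcs1, where 8.54% of all probe sets were called higher, and 2 lower, where 6.32% were called lower. Probe sets of a gene are repeated readings on the same arrays, and of the 8 genes 1 was called higher and 2 lower. With diet group as the only term in the model, no enzyme was called, with adjusted p from 0.198 to 0.975, and the share called among all probe sets was 0%, although 3209 had an unadjusted p under 0.05. Without the dim pair the calls were 3 higher and 3 lower, against 15.6% of all probe sets in either direction, leaving aside Dhcr7, which passed the filter only through VAD arrays. At 18 weeks none of the 13 was called, against 1.47% of all probe sets (396 of 27022), and the median log2 fold change of the 8 genes was 0.01 at 18 weeks and 0.29 at 25 weeks, where that of all probe sets was -0.01 at both times.

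**Figure D1:**
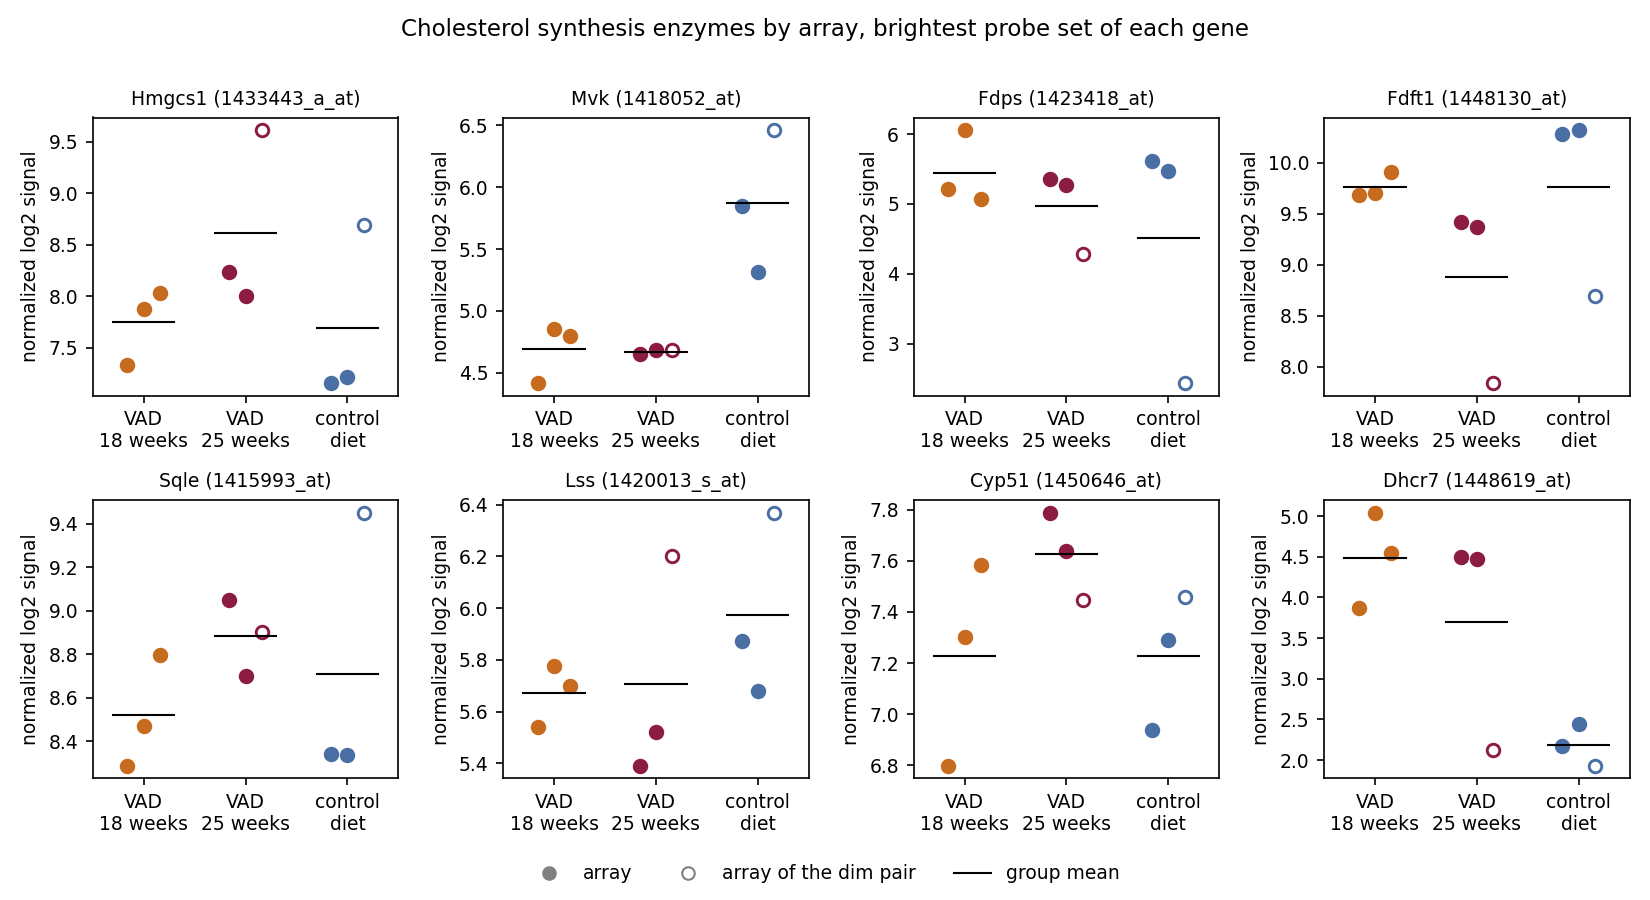
Normalized log2 signal of a probe set of each enzyme on each of the 9 arrays, with a panel per gene, the VAD 18-week, VAD 25-week and control arrays from left to right, open circles for the dim pair and a black line for the group mean. The brightest tested probe set is shown, types prone to cross-hybridisation coming last, so Fdft1 is shown by 1448130_at and not by the brighter 1438322_x_at. For Mvk all 6 VAD arrays lie at or below 4.85 and all 3 control arrays at or above 5.32, while for Hmgcs1 and Fdft1 the open circles stand far from the filled ones of the same group.

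Hmgcs1 was read by 5 probe sets. The brightest, 1433443_a_at, had deposited signals of 216, 205 and 319 at 18 weeks, 906, 587 and 244 at 25 weeks, and 123, 133 and 127 on the control diet. After normalization its log2 signals were 7.33, 7.88 and 8.04 at 18 weeks, 8.23, 8.0 and 9.61 at 25 weeks, and 7.16, 7.22 and 8.69 on the control diet. The third value of the 25-week and of the control group, both from the dim pair, stood highest in its group, so the groups overlapped even though the 25-week array was the higher one both inside and outside the pair.

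At 25 weeks Hmgcs1 was 1.90-fold higher by 1433443_a_at (95% interval 1.44 to 2.50), a log2 fold change of 0.93 ± 0.18 (SE, 3 arrays a group, adjusted p = 0.00745). The difference was 0.93 between the arrays outside the dim pair and 0.93 within it. Probe set 1433444_at rose by a log2 fold change of 0.86 ± 0.16 (adjusted p = 0.00599), with log2 signals of 7.54, 7.53 and 7.39 at 25 weeks against 6.65, 6.88 and 6.35 on the control diet. These groups did not overlap. Probe set 1433445_x_at, of a type prone to cross-hybridisation, rose by 0.72 ± 0.16 (adjusted p = 0.0139), also without overlap, at 7.90, 7.99 and 7.55 against 7.10, 7.27 and 6.91. Its call was lost without VAD 25-week replicate 1 (0.74, adjusted p = 0.0516), without VAD 25-week replicate 2 (0.68, adjusted p = 0.0675) and without control replicate 1 (0.66, adjusted p = 0.0600).

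The fourth kept Hmgcs1 probe set, 1433446_at, did not go the same way. Its log2 signals were 5.59, 5.48 and 4.26 at 25 weeks and 5.73, 5.87 and 4.74 on the control diet, a difference of -0.33 ± 0.21 (adjusted p = 0.317). The fifth, 1441536_at, stayed below the filter, with deposited signals of 0.139 to 14.0 over all 9 arrays. The Hmgcs1 rise therefore rests on 3 of its 4 tested probe sets. At 18 weeks the same 3 probe sets had log2 fold changes of 0.56 ± 0.19, 0.45 ± 0.17 and 0.21 ± 0.17 (adjusted p = 0.175, 0.219 and 0.591), none of them called. For 1433444_at the 18-week signals of 7.10, 7.33 and 7.08 nevertheless all lay above the control ones and all below the 25-week ones.

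Mvk, mevalonate kinase, had deposited signals for 1418052_at of 20.8, 22.4 and 27.4 at 18 weeks, 54.7, 43.2 and 12.7 at 25 weeks, and 43.5, 27.5 and 31.6 on the control diet. Relative to the brightness of each array it was lower under deficiency, with normalized log2 signals of 4.42, 4.85 and 4.80 at 18 weeks, 4.65, 4.68 and 4.68 at 25 weeks, and 5.85, 5.32 and 6.46 on the control diet. All 6 VAD arrays lay below all 3 control arrays. At 25 weeks Mvk fell by 1.20 ± 0.27 on the log2 scale (adjusted p = 0.0138), a level 0.434 times that of the control diet (95% interval 0.288 to 0.654). The difference was -0.92 outside the dim pair and -1.78 within it. Without control replicate 1 the call was lost (-1.13, adjusted p = 0.0572), and without the dim pair it held (-0.92, adjusted p = 0.044). At 18 weeks the difference was of a like size, -1.04 ± 0.29, but was not called (adjusted p = 0.101).

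The other Mvk probe set, 1430619_a_at, did not show this pattern. Its log2 signals were 4.23, 4.16 and 2.72 at 18 weeks, 4.10, 2.93 and 3.08 at 25 weeks, and 3.09, 3.69 and 3.55 on the control diet. The groups overlapped, and the differences from the control diet were 0.21 ± 0.52 at 18 weeks and -0.08 ± 0.49 at 25 weeks (adjusted p = 0.881 and 0.935). It is a dim probe set, at the 43.0th percentile of mean signal where the filter stood at the 40th, so the Mvk result rests on 1418052_at alone.

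Fdps, farnesyl pyrophosphate synthase, had deposited signals for 1423418_at of 40.8, 56.7 and 34.5 at 18 weeks, 99.5, 72.1 and 9.94 at 25 weeks, and 35.7, 31.4 and 1.41 on the control diet. The last control value belongs to the dim pair and set the group's spread, with normalized log2 signals of 5.62, 5.47 and 2.44. That array's signal was below the pseudocount, so differences against it depend on the pseudocount. The 25-week difference was 1.84 within the dim pair and -0.23 outside it, 0.46 ± 0.40 in the fit (adjusted p = 0.476). At 18 weeks it was 0.25 ± 0.43 (adjusted p = 0.820). The second probe set, 1438150_at, read 0.080 to 3.58 and stayed below the filter.

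Fdft1, squalene synthase, had the smallest adjusted p of the 13 probe sets at both times. Probe set 1448130_at had deposited signals of 1109, 700 and 1180 at 18 weeks, 2023, 1544 and 73.8 at 25 weeks, and 1242, 1312 and 127 on the control diet. Normalized, these were 9.68, 9.70 and 9.90 at 18 weeks, 9.42, 9.37 and 7.84 at 25 weeks, and 10.28, 10.32 and 8.70 on the control diet. The dim pair read low in both groups, so the groups overlapped, but within the pair and outside it the 25-week arrays were lower by nearly the same amount, -0.86 and -0.91.

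At 25 weeks Fdft1 fell by 0.89 ± 0.11 on the log2 scale (adjusted p = 0.000993), to 0.540 times the control level (95% interval 0.456 to 0.639). The call held when each of the 9 arrays was left out in turn. At 18 weeks the difference of -0.53 ± 0.12 just missed the threshold (adjusted p = 0.0516). It was called without VAD 25-week replicate 3 or without control replicate 3 (-0.54 in both, adjusted p = 0.0319 and 0.0317), the pair whose spread enters every comparison through the shared model. The pair holds no 18-week array, and with diet group as the only term the 18-week difference was -0.003 (adjusted p = 0.999). The second kept probe set, 1438322_x_at, had log2 signals of 10.99, 11.24 and 11.18 at 18 weeks, 11.17, 11.10 and 11.29 at 25 weeks, and 11.57, 11.60 and 11.41 on the control diet. All 6 VAD arrays were below all 3 control arrays, yet neither difference was called (-0.39 ± 0.11 at 18 weeks, adjusted p = 0.113, and -0.34 ± 0.11 at 25 weeks, adjusted p = 0.0558). Without the dim pair both passed (-0.45 at each time, adjusted p = 0.0427 at 18 weeks and 0.0261 at 25 weeks). The remaining Fdft1 probe sets, 1438918_at and 1438919_x_at, read at most 23.8 and stayed below the filter.

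Sqle, squalene epoxidase, had deposited signals of 430, 307 and 541 at 18 weeks, 1603, 960 and 145 at 25 weeks, and 304, 312 and 222 on the control diet. Its normalized log2 signals were 8.29, 8.47 and 8.80 at 18 weeks, 9.05, 8.70 and 8.90 at 25 weeks, and 8.34, 8.34 and 9.45 on the control diet. The dim-pair control array was the highest of all 9. The 25-week difference was therefore 0.54 outside the pair and -0.55 within it, and the fit gave 0.18 ± 0.22 (adjusted p = 0.623). At 18 weeks it gave 0.00 ± 0.23 (adjusted p = 0.999).

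Lss, lanosterol synthase, showed little spread between the diets. Probe set 1420013_s_at had deposited signals of 53.9, 46.0 and 56.8 at 18 weeks, 103, 88.3 and 29.2 at 25 weeks, and 44.3, 37.7 and 30.1 on the control diet. The log2 differences were -0.08 ± 0.20 at 18 weeks and -0.27 ± 0.19 at 25 weeks (adjusted p = 0.887 and 0.376), with 95% intervals of -0.52 to 0.36 and -0.69 to 0.15. The other probe sets, 1426913_at and 1420014_at, read at most 25.8 and stayed below the filter.

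Cyp51, lanosterol demethylase, had deposited signals for 1450646_at of 145, 138 and 232 at 18 weeks, 653, 448 and 58.7 at 25 weeks, and 104, 140 and 56.6 on the control diet. Normalized, the 25-week arrays read 7.79, 7.64 and 7.45 against 6.94, 7.29 and 7.46 on the control diet. The difference of 0.40 ± 0.22 was not called (adjusted p = 0.251). It was 0.60 outside the dim pair and -0.01 within it. At 18 weeks it was 0.01 ± 0.23 (adjusted p = 0.990). Probe sets 1422533_at and 1422534_at read at most 28.7 and stayed below the filter.

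Dhcr7, the reductase of the final step, had the largest fold changes against the control diet of the 13 probe sets and lay closest to the filter. Its deposited signals were 12.7, 26.4 and 22.3 at 18 weeks, 47.5, 35.6 and 0.804 at 25 weeks, and 0.755, 1.47 and 0.452 on the control diet. The 5 VAD arrays outside the dim pair were thus at 12.7 or above, while the control arrays and the dim 25-week array were below the pseudocount. At the 41.7th percentile of mean signal it passed the 40th-percentile filter only through the VAD arrays, so its passing already favoured a difference. The Fdft1 probe set 1438918_at and the Lss probe set 1426913_at, at percentiles 35.8 and 35.3, lay just outside.

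The log2 fold change of Dhcr7 was 1.85 ± 0.50 at 18 weeks (adjusted p = 0.0961), where the groups did not overlap, and 1.51 ± 0.47 at 25 weeks (adjusted p = 0.0529), where the dim array did. Neither was called. Outside the dim pair the 25-week difference was 2.17, and within the pair, where both arrays were at the floor of the measurement, it was 0.19. Without the dim pair the values were 2.18 at 18 weeks and 2.17 at 25 weeks, with adjusted p of 0.0144 and 0.00707. With the control signals below the pseudocount the size of these values depends on it, and because of the filter they are given as a description only.

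**Figure D2:**
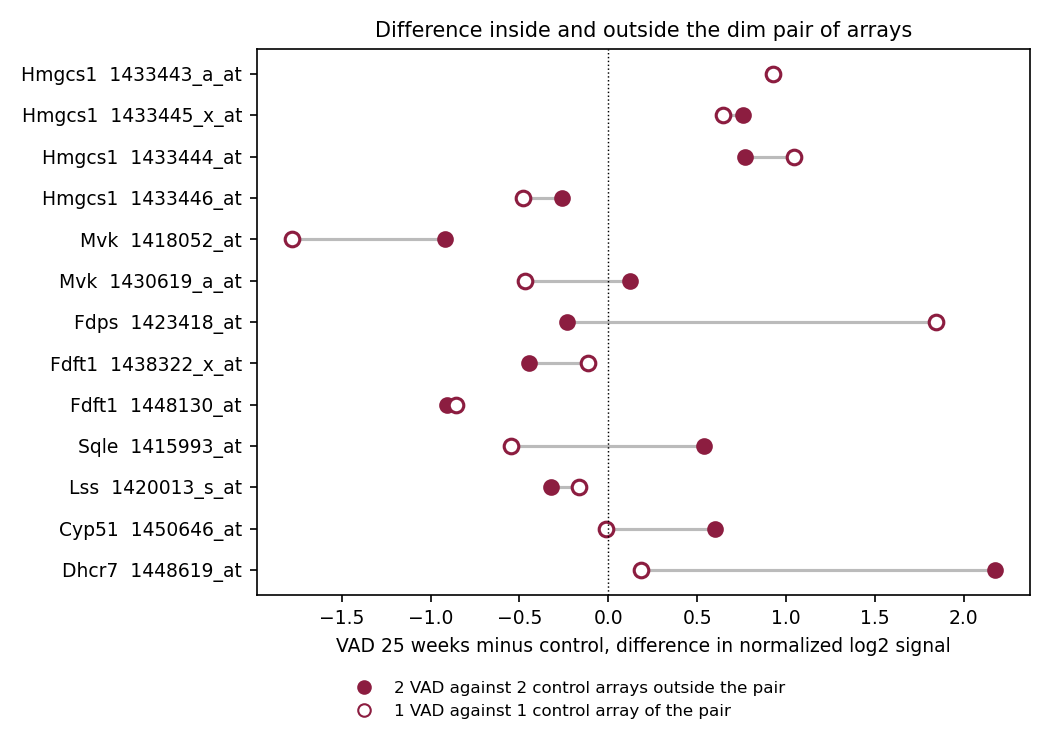
Difference in normalized log2 signal between VAD 25 weeks and the control diet for the 13 probe sets, filled circles for the 4 arrays outside the dim pair (2 VAD, 2 control) and open circles for the 2 arrays of the pair. The circles lie close together for the 3 called Hmgcs1 probe sets and Fdft1 1448130_at, and on opposite sides of 0 for Mvk 1430619_a_at, Fdps, Sqle and Cyp51.

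Across the 13 probe sets, 7 differences were positive outside the dim pair and 5 within it at 25 weeks. Groups did not overlap for 2 probe sets that were higher at 25 weeks and 2 that were lower, against 9.13% and 7.11% of all probe sets. At 18 weeks the same counts were 2 higher and 2 lower, against 11.8% and 7.6% of all probe sets. Hmgcs1 1433444_at, Mvk 1418052_at and Fdft1 1438322_x_at were in these counts at both times, joined by Dhcr7 at 18 weeks and Hmgcs1 1433445_x_at at 25 weeks. With diet group as the only term the 18-week comparison called 0% of all probe sets and no enzyme, although 1958 probe sets had an unadjusted p under 0.05. Without the dim pair both Fdft1 probe sets were called lower at 18 weeks, against 0.807% of all probe sets called lower, again leaving Dhcr7 aside. In either direction 3.99% of all probe sets were called. Both comparisons use the same control arrays.

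**Figure D3:**
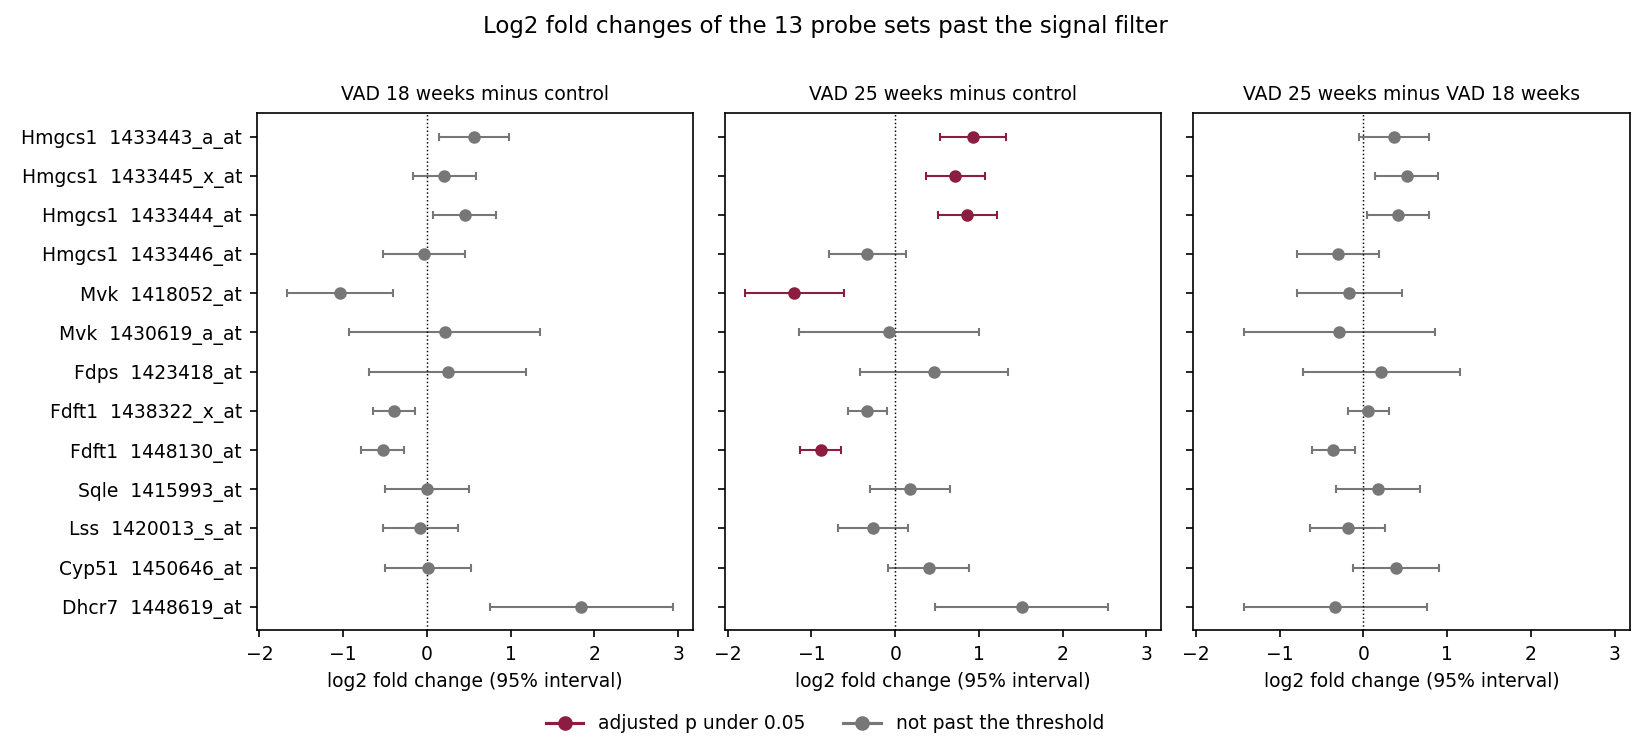
Log2 fold changes of the 13 probe sets with 95% intervals in the 3 comparisons, dark red where the adjusted p is under 0.05 and grey otherwise. Dark red appears only in the middle panel, VAD 25 weeks minus control, for 3 Hmgcs1 probe sets above 0 and for Mvk 1418052_at and Fdft1 1448130_at below 0.

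The direct comparison of 25 with 18 weeks called none of the 13 probe sets, and 0% of all probe sets, with or without the term for the dim pair, although 3119 had an unadjusted p under 0.05 with it. The nearest were Fdft1 1448130_at, at -0.36 ± 0.12 (adjusted p = 0.275), and Hmgcs1 1433445_x_at, at 0.51 ± 0.17 (adjusted p = 0.282). The intervals still allow sizeable differences, from 0.14 to 0.89 for this Hmgcs1 probe set and from -1.43 to 0.76 for Dhcr7. Without the dim pair none of the 13 was called, against 1.68% of all probe sets. Groups did not overlap for 1 probe set higher at 25 weeks, Hmgcs1 1433444_at, and for 2 lower, Hmgcs1 1433446_at and Fdft1 1448130_at, against 7.36% and 9.76% of all probe sets. A change that was called at 25 weeks and not at 18 weeks, as for Hmgcs1, Mvk and Fdft1, was thus not shown to differ between these times.

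Directions in these comparisons are relative to the bulk of each array. On the deposited scale the median log2 fold change of all probe sets was 0.92 at 25 weeks and 0.12 at 18 weeks, against -0.01 at both times after quantile normalization. On that scale 7 of the 13 probe sets were called at 25 weeks, all higher, and Fdft1 1448130_at and Mvk 1418052_at stood at 0.06 and -0.07 (adjusted p = 0.905 and 0.891), so the sign of the Fdft1 value turned and neither was called lower on that scale. Set against the median of all probe sets on the same scale, Hmgcs1 1433443_a_at was at 1.04, Dhcr7 at 1.36, Fdft1 1448130_at at -0.86 and Mvk 1418052_at at -0.99. With median centring 6 were called, 4 higher and 2 lower. Dhcr7 is among the higher calls on both scales. A block for 3 sets of arrays, which separates the 25-week arrays with high poly-A controls, leaves the 25-week comparison to the dim pair alone, 1 array a group. The spread then comes from the other 7 arrays, and the pair is assumed to vary like them. With it the model called 4 probe sets, without Hmgcs1 1433443_a_at (0.93, adjusted p = 0.0580) and 1433445_x_at (0.64, adjusted p = 0.108), and with Fdps (1.84, adjusted p = 0.0196), whose control signal in the pair lay below the pseudocount. The part of the poly-A difference in the enzyme results was not tested.

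Of 10 other cholesterol synthesis enzymes measured, Pmvk, Mvd, Idi1, Lbr, Tm7sf2, Msmo1, Nsdhl, Hsd17b7, Ebp and Sc5d, none was called at 18 weeks and 1 was called at 25 weeks, where 1.47% and 14.9% of all probe sets were called. This was Lbr, a sterol reductase that is also a receptor for lamin B in the nuclear envelope, which rose by 1.11 ± 0.21 (adjusted p = 0.00601), and by 1.49 without the dim pair (adjusted p = 0.000336). With the block of 3 array sets, which leaves only the dim pair to compare, it was at 0.37 and not called (adjusted p = 0.258). The median log2 fold change of the 10 was 0.18 at 18 weeks and 0.28 at 25 weeks. Ebp, a sterol isomerase, was next at 0.99 ± 0.37 (adjusted p = 0.0947), and Idi1 and Mvd, which isomerise and make isopentenyl pyrophosphate, were at -0.14 ± 0.13 and -0.13 ± 0.29 (adjusted p = 0.503 and 0.803).

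**Figure D4:**
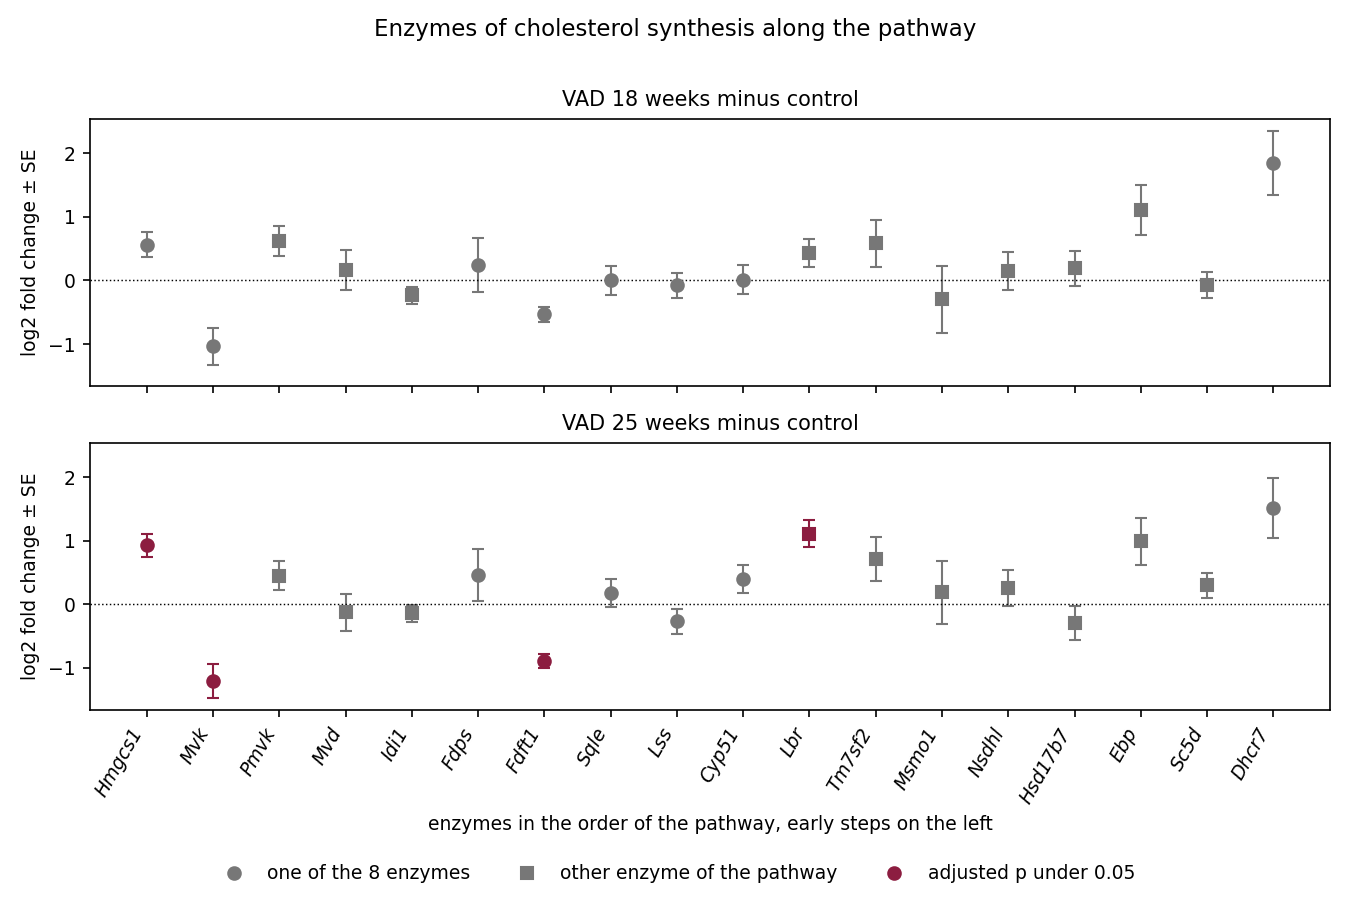
Log2 fold change against the control diet, with SE, of the probe set that stands for each of the 8 enzymes (circles) and of 10 further enzymes of the pathway (squares), ordered from early to late steps, at VAD 18 weeks (top) and 25 weeks (bottom). Fdft1 is shown by 1448130_at and not by the brighter 1438322_x_at, which was not called. Dark red marks an adjusted p under 0.05, reached at 25 weeks by Hmgcs1 and Lbr above 0 and by Mvk and Fdft1 below 0.

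The counts in the next lists are set against the same shares of all probe sets, 1.47% at 18 weeks and 14.9% at 25 weeks. Among 10 genes of SREBP2 control and sterol uptake, none was called at 18 weeks and 1 at 25 weeks. This was Npc2, a lysosomal cholesterol carrier, at 0.44 ± 0.12 (adjusted p = 0.0349). The SREBP genes were not called, with Srebf2 at -0.84 ± 0.43 and Srebf1 at -0.03 ± 0.31 (adjusted p = 0.220 and 0.955), nor were Scap, their escort protein, at 0.92 ± 0.42 (adjusted p = 0.166), and Insig1, which retains Scap, at 0.70 ± 0.32 (adjusted p = 0.162). Among 5 genes of LXR and sterol efflux, 1 was called at 25 weeks, the cholesterol exporter Abca1 at 1.43 ± 0.36 (adjusted p = 0.0224), and none at 18 weeks. Apoe, a lipid carrier, was at 1.49 ± 0.49 (adjusted p = 0.0647). None of 8 genes of the non-sterol isoprenoid branches was called at either time, and the closest was Pggt1b, a protein prenyltransferase subunit, at -0.49 ± 0.22 at 25 weeks (adjusted p = 0.162). Without the dim pair Rabggta, of the same list, was called at 25 weeks (adjusted p = 0.0399).

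At 25 weeks Lbr was still called when each array was left out in turn, but Npc2 and Abca1 were not. Npc2 was not called without the dim pair (adjusted p = 0.111), nor without VAD 25-week replicate 1, 2 or 3 (adjusted p = 0.0910, 0.0872 and 0.107) or control replicate 2 or 3 (adjusted p = 0.110 and 0.106). Abca1 was not called without the dim pair (adjusted p = 0.0875), nor without VAD 25-week replicate 2 or 3 (adjusted p = 0.0654 and 0.0915) or control replicate 1, 2 or 3 (adjusted p = 0.0512, 0.0555 and 0.0894). At 18 weeks, without the dim pair, Lbr and Npc2 were called higher (0.62 and 0.55, adjusted p = 0.0332 and 0.0397).

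Markers of somatic testis cells differed between the same groups. Sertoli cells, which surround germ cells in the tubule, had 15 marker genes measured, of which 13 passed the filter. Of these, 7 rose at 18 weeks and 9 at 25 weeks, and none fell, where 1.33% and 8.54% of all probe sets were called higher. The count was 8 at each time without the dim pair. With each array left out in turn it was 1 to 8 at 18 weeks, with 1 without VAD 18-week replicate 3, 2 without control replicate 2 and 3 without VAD 18-week replicate 2 or control replicate 1, and 7 to 10 at 25 weeks. The connexin gene Gja1 was higher by 3.52 ± 0.43 at 18 weeks and 3.61 ± 0.40 at 25 weeks (adjusted p = 0.00519 and 0.000558), sizes that depend on the pseudocount because its control signals of 2.81, 1.52 and 0.373 lay below it, against 33.5 to 161 on the VAD arrays, and it passed the filter through these. The control signals of Cldn11 (0.362, 2.68 and 0.513) and Amhr2 (2.00, 1.09 and 0.975) also lay below the pseudocount. Passing the filter through the VAD arrays already favoured a rise of such markers, so the counts above are a description. Clu rose by 3.35 ± 0.68 at 25 weeks (adjusted p = 0.00882). Its signals were 435, 361 and 101 at 25 weeks against 28.7, 31.1 and 0.731 on the control diet. The last control value, from the dim pair, lay below the pseudocount, so the size of the Clu rise also depends on it. The summed normalized signal of the 15 Sertoli markers was 836 to 2618 at 18 weeks and 1030 to 1891 at 25 weeks, against 247 to 354 on the control diet. Of these 15, Amh and Sox9 stayed below the filter.

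Leydig cells, which use cholesterol for androgens, had 5 markers measured, 4 of them above the filter. Of these, 1 was called at 25 weeks, the steroid hydroxylase Cyp17a1 at 2.21 ± 0.51 (adjusted p = 0.0147), and none at 18 weeks. Of all probe sets, 8.54% were called higher at 25 weeks and 1.33% at 18 weeks. Cyp17a1 was not called without the dim pair (adjusted p = 0.0658) and Hsd3b1, another steroidogenic enzyme, was, at both times (adjusted p = 0.0167 at 18 weeks and 0.00931 at 25 weeks). Their summed signal was 126 to 544 at 18 weeks and 281 to 304 at 25 weeks, against 35 to 136 on the control diet. Of 9 macrophage markers, 6 passed the filter and 4 rose at 25 weeks (C1qb, Mrc1, Csf1r and Lyz2), against the same 8.54% of all probe sets. C1qb had control signals of 6.07, 1.07 and 1.98, near or below the pseudocount, against 88.5, 45.5 and 13.9 at 25 weeks, which favoured its passing the filter. The summed signal of the 9 macrophage markers was 136 to 212 at 18 weeks and 244 to 328 at 25 weeks, against 128 to 271 on the control diet. With each array left out in turn 1 (without VAD 25-week replicate 1) to 3 macrophage markers rose at 25 weeks, 2 of them without VAD 25-week replicate 2, control replicate 1 or control replicate 2. The count was 3 without the dim pair, where Lyz2 was not called (adjusted p = 0.106), and 0 with the block of 3 array sets. The part of these cells in the enzyme values was not tested.

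**Figure D5:**
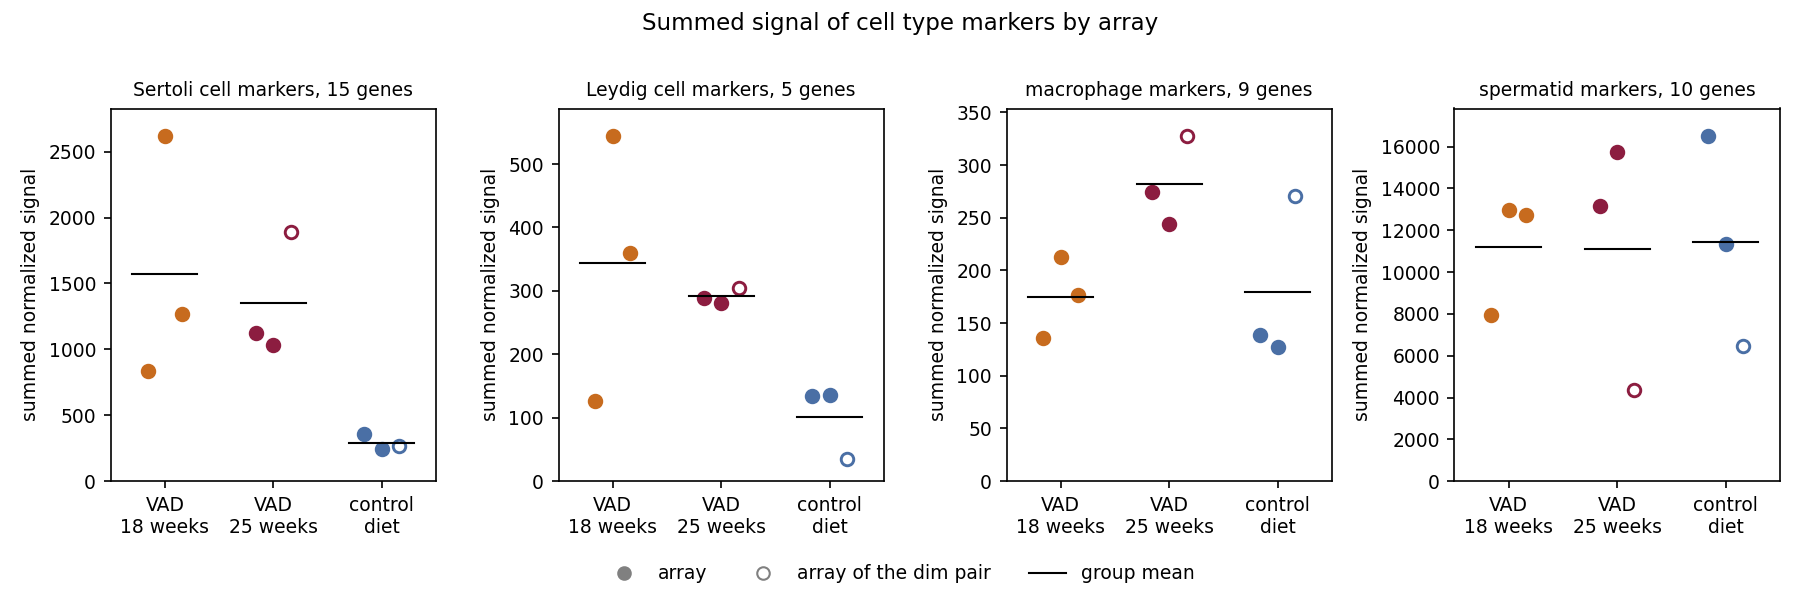
Summed normalized signal of the marker genes of Sertoli cells (15 genes), Leydig cells (5), macrophages (9) and spermatids (10) on each array, with the VAD 18-week, VAD 25-week and control groups from left to right, open circles for the dim pair and lines for the group means. All 6 VAD arrays lie above all 3 control arrays for the Sertoli markers, while the spermatid sums overlap between the groups.

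Germ cell markers were present throughout, including those of later stages than the labelled spermatogonia. Of 11 markers of undifferentiated spermatogonia, 5 passed the filter, and Id4 was called at both times, at 0.92 ± 0.14 at 18 weeks and 1.15 ± 0.13 at 25 weeks (adjusted p = 0.0123 and 0.000628). Its 18-week call was lost without VAD 18-week replicate 2, control replicate 1 or control replicate 2. Of the 5 markers, 2 had positive log2 fold changes at 18 weeks and 3 at 25 weeks, with lowest values of -0.58 and -1.20. Of all probe sets, 1.33% were called higher at 18 weeks and 8.54% at 25 weeks. All 6 markers of differentiating spermatogonia passed, and at 25 weeks Kit rose by 1.34 ± 0.32 (adjusted p = 0.0188), a call lost without VAD 25-week replicate 1 or 2 or control replicate 1, and Dmrtb1 fell by 1.19 ± 0.11 (adjusted p = 0.000175). Kit had control signals of 2.51, 6.79 and 1.56, near or below the pseudocount, against 7.83 to 50.8 on the VAD arrays. The VAD signals favoured its passing the filter, and the size of its rise depends on the pseudocount. All 8 pachytene spermatocyte markers passed the filter, with 2 higher at 18 weeks and 2 higher and 2 lower at 25 weeks, where 8.54% of all probe sets were called higher and 6.32% lower. The 18-week count became 0 without VAD 18-week replicate 2, control replicate 1 or control replicate 2, and 1 without VAD 18-week replicate 1 or 3 or VAD 25-week replicate 1 or 2. At 25 weeks it became 1 higher and 1 lower without VAD 25-week replicate 2, control replicate 1 or control replicate 2, 2 higher and 1 lower without VAD 25-week replicate 1, and 1 higher and 2 lower without the dim pair, either of its arrays, or VAD 18-week replicate 2. All 10 spermatid markers passed as well, with 3 lower at 25 weeks (Crem, Acr and Tnp2) and summed signals of 7934 to 12988 at 18 weeks and 4356 to 15752 at 25 weeks, against 6451 to 16498 on the control diet. Without VAD 25-week replicate 1 or control replicate 1 only 2 spermatid markers were called lower at 25 weeks, and without VAD 18-week replicate 2 or control replicate 2 the count was 4. Tnp2 lost its call without the dim pair (adjusted p = 0.116), and Acrv1 gained one (adjusted p = 0.0250). Of 6 markers of peritubular myoid cells 4 passed the filter and none was called, with 1, Acta2, called at 25 weeks without the dim pair (adjusted p = 0.0300). Hsd3b1, Acrv1 and Acta2 were named after their values were seen. The part of germ cell stages in the enzyme values was not tested.

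The enzymes did not vary as a unit across arrays. Over the 7 arrays outside the dim pair the 28 pairs of genes had Pearson correlations from -0.82 to 0.91, with a median of -0.19. Hmgcs1 and Sqle had the highest, at 0.91, and Sqle with Cyp51 reached 0.90. Fdft1 and Mvk correlated at 0.82 with each other and at -0.78 and -0.60 with Hmgcs1. With the dim pair included the range was -0.95 to 0.74 and the median -0.10. These are descriptions over few arrays that share their diet groups. By the same measure the genes most like the mean profile of the 8 enzymes, among 13608 compared over these 7 arrays, were Krt80 (0.97), Mrpl22 (0.97), Gpkow (0.96), Hspd1 (0.96) and Spcs2 (0.95), and over all 9 arrays their correlations were 0.75, -0.06, 0.20, 0.45 and 0.64. Over the 7 arrays 44 genes were above 0.90, and the mean profile joins enzymes that ran in opposite directions.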

How the data were processed

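Each deposited value is an MAS5 intensity on a linear scale, named as such by the submitters' processing notes and borne out by its range, with 1 value per probe set and array. The sources used here name neither the MAS5 version nor its scaling target. Per the labels' protocols, 100 ng of total RNA went through 2 cycles of amplification.

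Signals were taken as log2(signal + 3.26), the pseudocount being the 25th percentile of all signals, and quantile normalized. Control probe sets, 64 in number, did not enter, and of the other 45037 the 27022 whose mean reached the 40th percentile were tested. Names came from a platform table, with 34958 probe sets under a single symbol, 932 under several and 9211 under none, and 34754 were found by gene identifier in a GRCm38.p6 table. The brightest tested probe set stood for a gene, types prone to cross-hybridisation coming last, and levels were not compared between probe sets.

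All 9 arrays were fitted with limma 3.58.1 in R 4.3.3 (diet group and dim pair as terms, 5 residual degrees of freedom, eBayes with trend). The dim pair is the arrays with a trimmed mean (2% from each end) under 0.5 of the median of the arrays. The 18-week values draw on the 25-week arrays through this term. The fit was also run on data simulated from its own terms with independent normal noise. Such data cannot show whether the dim-pair term or the independence of the arrays holds. Members, lists and the dim-pair term were chosen with earlier results of these data known. Genes named besides the 8 were list members that passed the threshold, those of smallest p in a list, and the 5 most alike in profile. Alternatives covered the array terms, scaling, pseudocount, filter, variance model, replicate numbers and leaving out each array.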

Additional observations from a re-analysis of the deposited data

How the results depend on the processing

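The direction of a called enzyme value turned in 1 case over 19 alternatives, Fdft1 1448130_at at 25 weeks on the deposited scaling, at 0.059. Among all 741 single values of the enzymes (39 results in 19 alternatives), 72 changed sign, 13 lost a call and 32 gained one. The number of enzyme probe sets called at 18 weeks, 0, became 3 with the dim pair left out, 3 with the block of 3 array sets, 2 with median centring and 3 with array weights, and ranged from 0 to 3 when each array was left out in turn. Each count of 3 at 18 weeks and of 7 at 25 weeks includes Dhcr7, which passed the filter only through VAD arrays. At 25 weeks the 5 calls became 0 with group alone and ranged from 3 (without control replicate 1) to 7 (without VAD 25-week or control replicate 3) over single arrays left out. For 25 against 18 weeks the 0 became 1 on the deposited scaling, and stayed 0 over single arrays left out.

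The median log2 fold change of the 8 genes at 25 weeks, 0.29, was -0.089 with the block of 3 array sets and 1.24 on the deposited scaling, and 0.13 to 0.29 over single arrays left out. For 25 against 18 weeks, 0.00 became -0.22 with that block and 0.83 on the deposited scaling, with -0.10 to 0.05 over single arrays. At 18 weeks it ranged from -0.12 to 0.17 over single arrays. Of the 33 other pathway genes, 0 were called at 18 weeks, against 2 with the dim pair left out, 2 with the block of 3 array sets and 1 with array weights (0 to 2 over single arrays). At 25 weeks 3 were called, against 0 with group alone, 17 on the deposited scaling, 1 with no trend in the variance and 5 with array weights (1 to 4 over single arrays). For 25 against 18 weeks 0 were called, against 1 without the dim pair, 5 on the deposited scaling and 3 with array weights (0 to 1 over single arrays). Where nothing above names it, the cause was not tested.

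Over all probe sets, the 396 calls at 18 weeks became 0 with group alone or no trend, 19 with a replicate block, 134 on the deposited scaling, 964 with 3 array sets, 1078 without the dim pair, 1086 with array weights and 37 to 1031 over single arrays. The 4017 at 25 weeks became 0 with group alone, 2391 with no trend, 2599 with a replicate block, 6592 with array weights, 10471 on the deposited scaling (10463 of them higher) and 1788 to 4159 over single arrays. The 0 for 25 against 18 weeks became 453 without the dim pair, 1550 with array weights, 1707 with 3 array sets and 1783 on the deposited scaling. Sertoli marker calls, 7 at 18 weeks and 9 at 25 weeks, became 0 at both times with group alone, and 0 at 18 weeks with no trend or a replicate block. Median centring gave 2791 higher and 837 lower at 25 weeks, against 2308 and 1709. Same-numbered arrays correlated in their deviations at 0.525, 0.519 and 0.690 between 25 weeks and the control diet, but at -0.005 to 0.075 between 18 weeks and the control diet, and crossed numbers reached 0.540, so the numbers were not taken as a pairing. With a replicate block the enzymes had 5 calls at 25 weeks (3 higher, 2 lower) and 0 at 18 weeks. Signals near the pseudocount, as for Dhcr7 on the control diet, give differences that depend on it.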
